A study of Mus musculus with 24 samples.

Results

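The 9 genes described here, Ppp1r1b, Adora2a, Gpr6, Adcy5, Pde10a, Pde1b, Rgs9, Gnal and Arpp21, are the cAMP signalling genes by which spiny projection neurons of the striatum are usually recognised. They are given by symbol in a rule that uses no measured value, but were chosen with earlier results of these data known. All 9 were found among the 54235 features of the deposited matrices. Their levels were followed in D1-like and D2-like spiny neurons, in the other cells of the dorsal striatum and in the motor cortex, over the stages of a learned reaching task.

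Spiny projection neurons are the output cells of the striatum and come in a type that carries the dopamine receptor Drd1 and a type that carries Drd2. In the first, dopamine raises cAMP through Gnal, the olfactory-type stimulatory G protein alpha subunit, and Adcy5, the main adenylyl cyclase of the striatum. In the second, dopamine lowers cAMP and adenosine, acting on Adora2a through the same G protein and cyclase, raises it. Phosphodiesterases such as Pde10a and Pde1b break cAMP and cGMP down, and protein kinase A passes the signal on to phosphoproteins such as those encoded by Ppp1r1b and Arpp21.

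The study trained mice to reach with a forelimb and sequenced single cells by the droplet 3' method. Control mice received 4-hydroxytamoxifen without training, early mice were labelled after 2 days of training and late mice after 8 days, and tissue was taken 3 days after labelling. The dorsal striatum came from Arc-CreER::Ai9 mice and the motor cortex from Fos-CreER::Ai9 mice, controls included, so that region and driver line cannot be told apart. In these lines, a Cre recombinase that 4-hydroxytamoxifen activates is made from an activity-dependent gene and turns on a red fluorescent reporter. Cells of 2 mice, a male and a female, were pooled by hemisphere, which is contralateral or ipsilateral in trained mice and left or right in controls. Each stage had 2 pools in each region, numbered 1 and 2 here in accession order, and the pool was the replicate. Age is not given in the labels.

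After filtering, 98612 cells remained, 47985 from the motor cortex and 50627 from the dorsal striatum, in 23 of the 24 libraries; the second hemisphere of striatal control pool 1 was not analysed here. Total counts per library ran from 16837066 to 23677020 unique molecular identifiers (UMIs) in the striatum and from 5260446 to 30470621 in the cortex. 2 kinds of library, called class A (control 1 and late 1 of each region) and class B (the other pools), were told apart by the cell barcodes that pools shared, with 1.34 shared barcodes for 1e6 possible pairs within A, 0.262 within B and 0.0236 between A and B. In each region class A is also 1 sequencing batch of the labels (1 of 4 in the striatum), so class and batch cannot be told apart. The hemispheres of a pool shared between 2 and 120 barcodes. Clusters were named from marker genes that hold none of the 9 genes, with naming rules adjusted after the clusters had been seen. In the striatum, 21686 cells (42.83%) were spiny-like, of which 8233 were D1-like, 9108 D2-like and 948 like the eccentric type; the cortex had no spiny-like cluster. The 4 D2 markers (Drd2, Penk, Sp9, Grik3) summed to 5736 to 13070 CPM (UMIs of a gene for each 1e6 UMIs of the class in a pool) in D2-like cells and 76.0 to 293 in D1-like cells, and the 5 D1 markers (Drd1, Tac1, Pdyn, Isl1, Eya1) to 4372 to 5338 CPM in D1-like and 121 to 299 in D2-like cells. D1-like and D2-like cells of class A and class B fell almost wholly into different subclusters (5 and 8 against 3, 4 and 6 for D1-like, and 1 against 0 and 2 for D2-like).

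Levels below are CPM over all cells of a class in a pool. They are compared for 1 gene across cells and pools, never between genes, since counts from 3' ends depend on each gene's own capture. The D1-like and D2-like clusters were built without the 9 genes but from genes that vary with them, so levels by cluster are a description. The test of D2 against D1 neurons used 2 gates set on the 9 marker genes named above, which hold no member. Gene positions are those of GENCODE M21 on GRCm38, and each of the 9 genes is protein coding.

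The promoter windows below show the upstream sequence of 3 members chosen after the values were seen, for the 2 patterns of expression: Gpr6 was high in D2 neurons alone among the spiny neurons, while Rgs9 and Adcy5 were high in both types. Each is the 250 bases before a transcription start in RefSeq (GRCm38.p6), 5′ to 3′ on the gene's strand, with a full cAMP response element, TGACGTCA, in capitals where the letters occur. Gpr6 is at chr10:41072291-41072540 on the minus strand, Rgs9 at chr11:109298182-109298431 on the minus strand and Adcy5 at chr16:35154614-35154863 on the plus strand.
Gpr6: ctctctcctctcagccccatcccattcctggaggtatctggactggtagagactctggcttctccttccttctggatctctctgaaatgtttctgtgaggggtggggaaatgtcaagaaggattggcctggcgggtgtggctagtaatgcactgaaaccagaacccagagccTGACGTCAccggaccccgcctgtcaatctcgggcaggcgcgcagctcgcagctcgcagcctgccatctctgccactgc
Rgs9: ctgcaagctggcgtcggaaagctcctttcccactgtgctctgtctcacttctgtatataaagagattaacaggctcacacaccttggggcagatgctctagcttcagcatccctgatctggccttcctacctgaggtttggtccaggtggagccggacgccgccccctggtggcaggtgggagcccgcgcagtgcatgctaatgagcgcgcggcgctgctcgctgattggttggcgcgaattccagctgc
Adcy5: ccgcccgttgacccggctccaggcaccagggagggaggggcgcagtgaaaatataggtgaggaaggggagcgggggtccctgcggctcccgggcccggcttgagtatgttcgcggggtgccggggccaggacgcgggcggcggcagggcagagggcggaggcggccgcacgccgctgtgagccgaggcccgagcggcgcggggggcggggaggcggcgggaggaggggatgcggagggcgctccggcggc

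In the Gpr6 window the element lies 78 to 71 bases before the start, and the Rgs9 and Adcy5 windows do not hold these letters. Of 32851 windows of the same length over all genes, 508 (1.55%) held TGACGTCA. Its shorter form TGACG, which is part of the full element, was searched on either strand and was in 5836 windows (17.8%). RefSeq windows were matched for 6 of the 9 members, 17 windows in all, of which 1 held TGACGTCA (Gpr6) and 3 held TGACG (1 of Gpr6 and 2 of Arpp21). Adora2a, Ppp1r1b and Gnal are named only. A match of letters is a description of the sequence and shows no binding.

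The adenosine receptor gene Adora2a (ENSMUSG00000020178, chr10:75316877-75334784, plus strand) separated the 2 kinds of spiny neuron more than any other member. Over the 6 striatal pools its level in D2-like cells was 977 CPM at the lowest, 1061 at the median and 1106 at the highest. In D1-like cells the lowest was 5.33, the median 8.17 and the highest 14.6 CPM, so the groups lay far apart in every pool. After each cell was thinned to 1000 UMIs, 61.1% of D2-like cells held an Adora2a UMI, against 0.773% of D1-like cells. Striatal microglia, used here as background, stood at 0.776% (0.429% to 1.73% over pools), overlapping the D1-like pools (0.447% to 1.79%). By CPM microglia were at 37.7 in late 1 and at 3.70 to 12.5 in the other 5 pools. The D1-like share is thus not clearly above background. Unthinned, the shares were 93.6%, 2.07% and 1.29%. Median depths per pool were 2495 to 5938 UMIs in D2-like cells, 2675 to 6467 in D1-like cells and 1221 to 2313 in microglia.

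Next in order after D2-like cells came mural cells, the contractile and pericyte cells of vessels, at 76.7 ± 31.8 CPM (SD, n = 6 pools) and fibroblasts at 75.2 ± 83.9, which overlapped each other. Every other striatal class had a mean of 39.0 CPM or less. In the cortex the same classes led, mural cells at 79.2 ± 30.1 and fibroblasts at 78.4 ± 45.4 CPM, and lay apart from the third, astrocytes, at 8.09 ± 2.19. Mural cells of the regions differed by 0.0050 on the log2 scale (SE 0.20) and were not called. Cortical glutamatergic neurons had 0.961 ± 0.502 CPM of Adora2a. Eccentric-like spiny neurons had 12.0 ± 3.9 CPM in the 4 class B pools, which overlapped the D1-like pools. Their values are given for class B alone because the named subcluster held only 8 cells in each class A pool. Another subcluster, with 719 cells in class A, had 4 of the 5 eccentric markers and was left unnamed by the naming rule, for its D1 markers.

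Gpr6 (ENSMUSG00000046922, chr10:41069977-41072285, minus strand) encodes an orphan receptor with high basal activity that couples to adenylyl cyclase. In D2-like cells its level was 195.5 CPM at the lowest, 255 at the median and 305 at the highest, and in D1-like cells 2.27, 3.37 and 4.6. A UMI of Gpr6 was found in 20.5% of D2-like cells, 0.348% of D1-like cells and 0.0874% of striatal microglia after thinning to 1000 UMIs (60.8%, 1.37% and 0.240% unthinned). No other striatal class reached a mean of 10 CPM, and the classes after D2-like overlapped their neighbours throughout the order. Eccentric-like cells stood at 8.66 ± 2.87 CPM (n = 4 pools). In the cortex, GABAergic interneurons had 3.74 ± 1.5 CPM, apart from glutamatergic neurons at 0.345 ± 0.153, and no other cortical class had a higher mean than these.

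**Figure D1:**
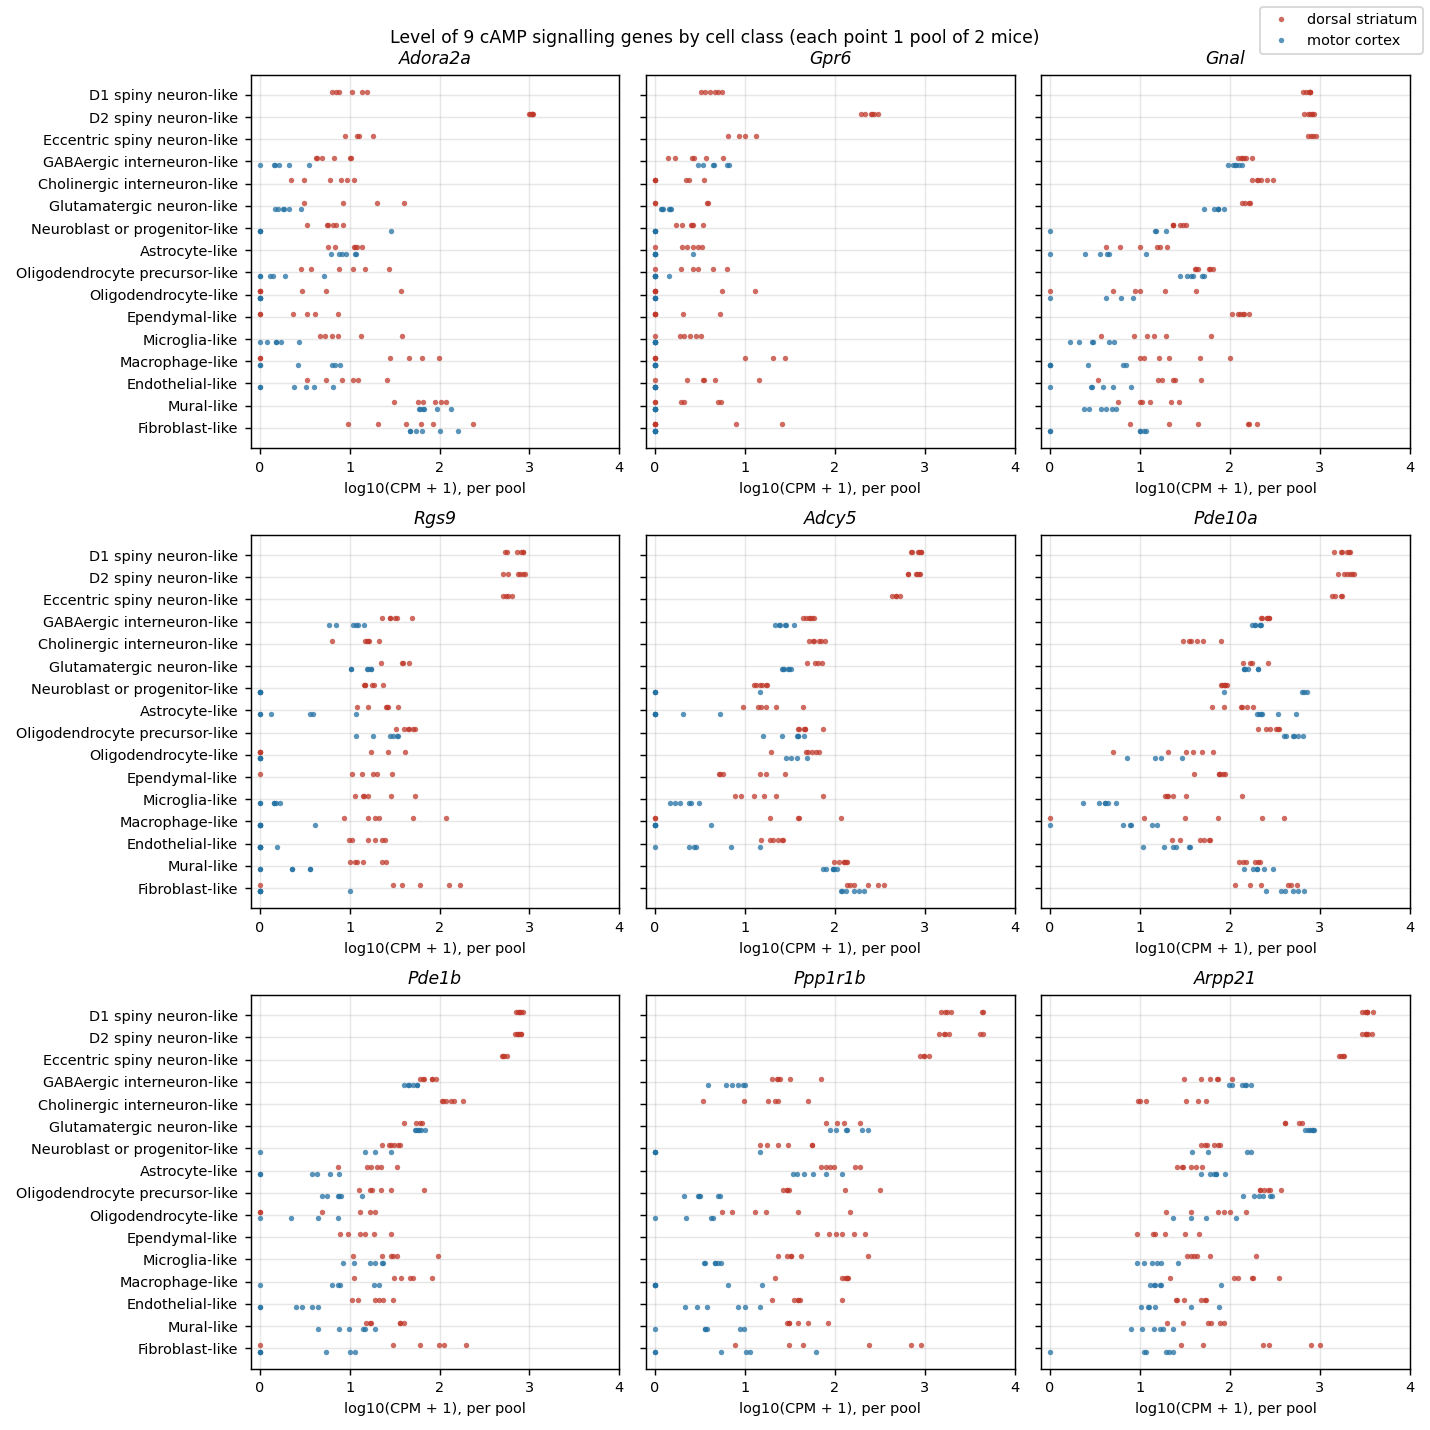
Level of each gene as log10(CPM + 1) on the horizontal axis in cell classes of the dorsal striatum (red) and motor cortex (blue); each point is a pool. Adora2a and Gpr6 are high in D2-like cells only among the spiny neurons, while the other 7 genes are high in both D1-like and D2-like cells.

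Gnal (ENSMUSG00000024524), the G protein alpha subunit that couples these receptors to the cyclase, was found in all spiny classes and, at lower levels, in other neurons. In D1-like cells it was 742 ± 54.8 CPM and in D2-like cells 780 ± 69.7 (n = 6 pools). Eccentric-like cells, at 814 ± 65.3 (n = 4), overlapped both. Cholinergic interneurons followed at 225 ± 44.3 CPM (174 to 297), apart from the spiny classes above, and overlapped GABAergic interneurons, which reached 176, and fibroblasts, which reached 197. Glutamatergic neurons of the striatal dissection (154 ± 14.2, n = 4), GABAergic interneurons (143 ± 18.9) and ependymal cells (133 ± 19.8), the ciliated lining of the ventricle, overlapped one another. In the cortex, GABAergic interneurons were highest at 115 ± 14.1 CPM, above glutamatergic neurons at 69.7 ± 11.3, with no overlap.

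Rgs9 (ENSMUSG00000020599, chr11:109225355-109298129, minus strand) encodes a protein that speeds GTP hydrolysis by G protein alpha subunits and so shortens receptor signals. Its mean was 719 ± 139 CPM in D1-like, 727 ± 150 in D2-like and 569 ± 51.7 in eccentric-like cells (n = 6, 6 and 4 pools). Within the 4 class B pools, their 511 to 633.5 CPM lay below D1-like (726 to 847) and D2-like cells (744 to 888), which overlapped each other. Of the other striatal classes, oligodendrocyte precursors had 43.5 ± 7.42 CPM. Fibroblasts had a higher mean, 70.5 ± 64.4, but from 22 of 279 cells, with pools from 0 to 169 CPM. In the cortex no class had a mean above that of oligodendrocyte precursors, 25.0 ± 9.12 CPM, and microglia stood at 0.345 ± 0.282.

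Adcy5 (ENSMUSG00000022840, chr16:35154877-35305738, plus strand) stood at 826 ± 91.8 CPM in D1-like and 777 ± 103 in D2-like cells. Their ranges over pools overlapped, but within pools D2-like cells were higher in 0 of 6. Eccentric-like cells were lower, at 483 ± 38.8 with no overlap, followed by fibroblasts (222 ± 88.2) and mural cells (121 ± 13.9), each apart from the next class. The same vascular order was seen in the cortex, with fibroblasts at 155 ± 38.3 and mural cells at 90.3 ± 12.2 CPM. Cortical glutamatergic neurons had 27.9 ± 2.92 and GABAergic interneurons 26.1 ± 4.84 CPM, and these overlapped.

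Pde10a (ENSMUSG00000023868, chr17:8525372-8986648, plus strand), the dual cAMP and cGMP phosphodiesterase typical of spiny neurons, had 2043 ± 297 CPM in D2-like cells, 1863 ± 267 in D1-like and 1577 ± 192 in eccentric-like cells. Within the 4 class B pools, eccentric-like cells, at 1740 CPM or less, lay below D1-like (1777 to 2141) and D2-like cells (1983 to 2399). Outside the spiny classes it was found in glia as well as neurons. Striatal oligodendrocyte precursors had 292 ± 57.7 CPM and GABAergic interneurons 250 ± 22.0. In the cortex, neuroblasts or progenitors (524 ± 296, n = 4 pools), oligodendrocyte precursors (507 ± 92.1), fibroblasts (252.5 to 660) and astrocytes (290 ± 133) overlapped in turn, and glutamatergic neurons had 165 ± 30.3 CPM.

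Pde1b (ENSMUSG00000022489, chr15:103503034-103530052, plus strand) encodes a phosphodiesterase switched on by calcium and calmodulin. D1-like cells had 776 ± 45.0 CPM and D2-like cells 758 ± 46.9, with overlap, and eccentric-like cells had 523 ± 28.6, apart from both. Cholinergic interneurons came next among neurons at 131 ± 28.0 CPM. GABAergic interneurons followed at 74.4 ± 12.7. In the cortex, glutamatergic neurons (58.6 ± 5.81) and GABAergic interneurons (48.0 ± 6.39) overlapped and lay apart from all other classes.

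Ppp1r1b (ENSMUSG00000061718, chr11:98348404-98357796, plus strand) encodes the phosphoprotein that inhibits protein phosphatase 1 once protein kinase A has phosphorylated it. Its level in D1-like cells was 1508 CPM at the lowest, 1854 at the median and 4404 at the highest, and in D2-like cells 1443, 1763 and 4476. In both cell types the 2 class A pools were high and the 4 class B pools low, as described further on. Eccentric-like cells of the class B pools had 995 ± 101 CPM, and the unnamed class A subcluster with eccentric markers 2336. In the cortex, glutamatergic neurons had 149 ± 57.9 and astrocytes 61.1 ± 32.5 CPM, which overlapped, and the next class by mean was fibroblasts at 14.1 ± 23.1.

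Arpp21 (ENSMUSG00000032503, chr9:112065091-112235938, minus strand) encodes a cAMP-regulated phosphoprotein that binds RNA, and its span holds the microRNA gene Mir128-2 on the same strand. It stood at 3340 ± 330 CPM in D1-like and 3329 ± 299 in D2-like cells, with overlap, and at 1752 ± 96.8 in eccentric-like cells, apart from both. Glutamatergic neurons of the cortex had 787 ± 69.5 CPM, and no other cortical class overlapped them. That is 25.3% of the mean of all striatal spiny-like cells, while the other 8 members reached between 0.20% (Adora2a) and 9.31% (Gnal) there.

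Expressed as a percentage of the level in spiny-like cells of the same pool, striatal classes differed in which members they carried. Microglia gave a low share for all 9 members, between 1.2% (Gpr6) and 5.0% (Pde1b) in the mean, which is used here as the background level. Without pool late 1 these means lay between 1.1% (Pde10a) and 3.4% (Pde1b): 8 of the 9 were lower, Gpr6 was at 1.4%, and Adcy5 went from 3.2% to 1.6%, Gnal from 2.7% to 1.4% and Adora2a from 2.3% to 1.3%. Microglia of the cortex, which had no spiny-like cluster, held 16 ± 6.14 CPM of Pde1b and 14.4 ± 6.02 of Arpp21, and 3.5 or less of the other 7. In cholinergic interneurons Gnal was at 30.0 ± 5.2% (SD, n = 6 pools) and Pde1b at 18 ± 3.3%, Adcy5 was at 8.5 ± 2.3%, and the other 6 were at 2.4% or less. In GABAergic interneurons Gnal was at 19.2 ± 2.7%, Pde10a at 13.5 ± 1.3% and Pde1b at 10.2 ± 1.6%, with Ppp1r1b at 1.4 ± 0.6%. Oligodendrocyte precursors had Pde10a at 16 ± 4.4% and Arpp21 at 8.5 ± 2.0%. Ependymal cells had Gnal at 18 ± 4.2%, with Ppp1r1b at 5.4 ± 1.4%.

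Mural cells had Adcy5 at 16.3 ± 3.4% and Adora2a at 15.6 ± 6.3%, with Gpr6 at 1.6 ± 1.8%. Astrocytes had Pde10a at 7.0 ± 3.0% and Ppp1r1b at 5.0 ± 1.0%. Of the 9672 striatal cells named neuroblasts or progenitors, a cluster of 510 was led by Th, Trh and Gal and scored higher for interneuron than for neuroblast markers, so its name does not hold; the plot of levels by class and the tests by stage include it. Without it, which was decided after seeing the data, the class lay between 0.99% (Adora2a) and 3.9% (Pde10a) for all members. Its Pde10a was then at 65.0 to 80.8 CPM over the 6 pools, against 18.1 to 31.3 in microglia of the 5 pools other than late 1 and 135 in late 1. Eccentric-like cells kept between 58.4 ± 5.0% (Arpp21) and 103 ± 5.8% (Gnal) of the spiny level for 7 members, against 8.1 ± 3.1% for Gpr6 and 2.5 ± 0.9% for Adora2a (n = 4 pools). In microglia of pool late 1, Ppp1r1b stood at 233 CPM, against 22.5 to 41.6 in the other 5 pools.

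**Figure D2:**
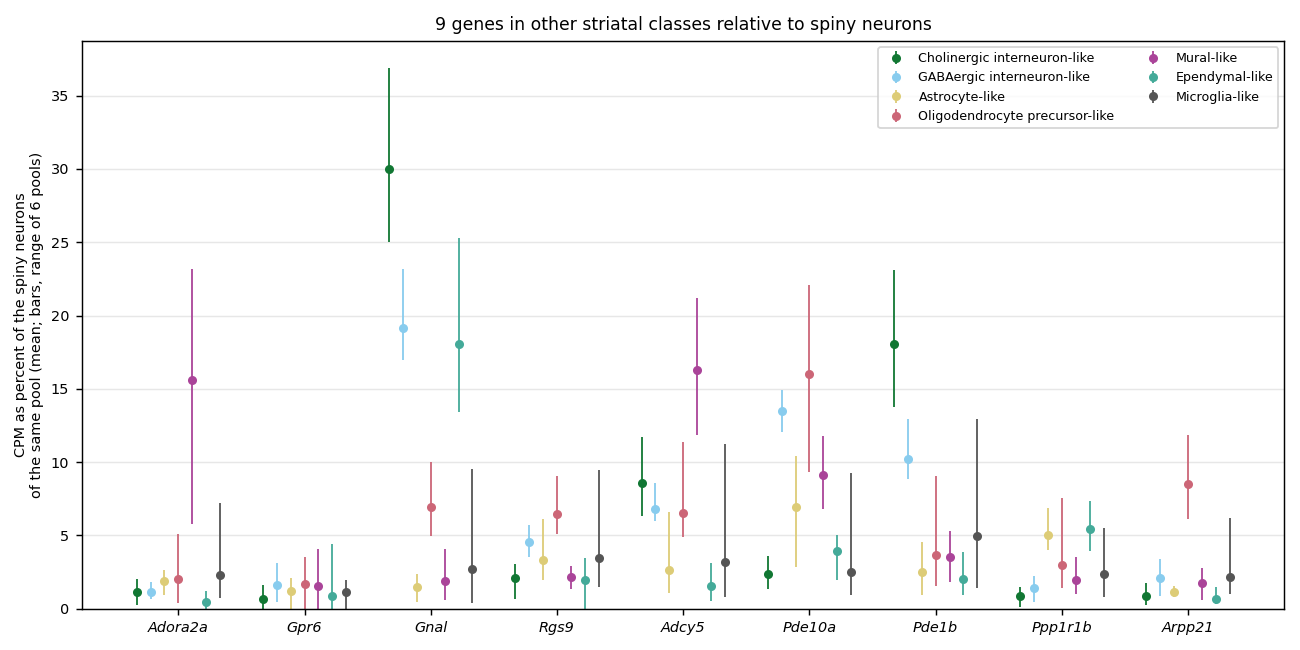
Mean level of each gene (points) in 7 striatal classes as a percentage of its level in spiny-like cells of the same pool, with bars for the range of 6 pools. Gnal stands out in cholinergic cells (30.0%), Pde10a in oligodendrocyte precursors (16%) and Adora2a with Adcy5 in mural cells (15.6% and 16.3%), while microglia lie between 1.2% and 5.0% for all 9 genes.

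Whether cells found in both regions carry more of these transcripts in the striatum was tested with edgeR's quasi-likelihood test and Benjamini-Hochberg adjustment, with library class as a covariate. Of 36 tests of members in 8 classes, 20 were higher in the striatum and 4 lower at an adjusted p under 0.05. Over all genes of the same 8 classes, 12.9% of 59615 tests were called. In 9 of the 36 tests, all called higher, the member passed the filter on low counts in the striatum alone and not in the cortex alone, so the count of these is no support for a regional difference. Of the other 27 tests, 11 were called higher and 4 lower. Region cannot be told apart from driver line, and the part that spiny neuron RNA in the droplets plays in these differences was not tested.

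In GABAergic interneurons all 7 tested members were called, where 35.8% of genes were. Ppp1r1b was higher in the striatum by 2.42 on the log2 scale (SE 0.24), at 31.1 ± 18.8 against 6.54 ± 2.33 CPM. Striatal microglia, used here as background, stood at 31.1 ± 6.94 CPM in the 5 pools other than late 1. The Ppp1r1b call is therefore not read as a result. Adcy5 was higher by 1.12 (SE 0.13). Rgs9 was higher by 1.88 (SE 0.16), at 31.3 ± 9.03 against 9.38 ± 3.29 CPM. Its striatal interneuron pools, at 21.65 to 47.9 CPM, overlapped striatal microglia, at 10.4 to 28.2 without late 1 and 51.8 in late 1. The Rgs9 call is therefore not read as a result either. Pde1b, Gnal and Pde10a rose by 0.78, 0.48 and 0.47, while Arpp21 was lower, at -0.92 (SE 0.15; 63.7 ± 25.0 against 134 ± 28.8 CPM). Kinds of interneuron were not compared between the regions.

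In astrocytes, where 33.7% of genes were called, Ppp1r1b (0.97) was higher and Pde10a (-1.18, SE 0.18) and Arpp21 (-0.93, SE 0.17) lower in the striatum. Ppp1r1b stood at 115 ± 51.0 against 61.1 ± 32.5 CPM, with striatal microglia at 31.1 ± 6.94 without late 1 and 233 in late 1. Pde10a in striatal astrocytes was 124 ± 43.4 CPM against 290 ± 133 in the cortex, with no overlap of the pools. Oligodendrocyte precursors also had less Pde10a in the striatum (-0.75, SE 0.13; 292 ± 57.7 against 507 ± 92.1 CPM, no overlap), in a class where 0.769% of genes were called. In the same cells Pde1b (1.91) and Rgs9 (0.76) were higher. Pde1b, at 26.7 ± 20.4 CPM in the striatum, was not clearly above striatal microglia without late 1 (24.4 ± 8.94 CPM). Its call is therefore not read as a result. Without the library class in the model, the calls of Pde10a (-0.77, adjusted p = 0.186), Pde1b (2.00, 0.164) and Rgs9 (0.79, 0.298) in precursors were lost. Rgs9 also lost its call there without striatal pool late 1 (0.65, adjusted p = 0.0573).

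In microglia, where 0.77% of genes were called, only 2 members passed the filter in the cortex alone. Of these, Arpp21 was called higher in the striatum (2.18; 66.9 ± 62.6 against 14.4 ± 6.02 CPM) and Pde1b was not (1.15, adjusted p = 0.280). Arpp21 was at 193 CPM in late 1 and 41.6 ± 10.5 in the other 5 striatal pools, and without late 1 its difference was 1.65 (adjusted p = 0.0019). Rgs9, Adcy5, Ppp1r1b and Pde10a passed only through the striatal pools, and their calls are not read as a result. Arpp21 lost its call in microglia without the library class (2.17, adjusted p = 0.0859). Striatal microglia are the background level used above, so the call of Arpp21 in them is not read as a result. In mural cells, where 0.435% of genes were called, Arpp21 was higher (2.19) and Adora2a, Adcy5, Pde10a and Pde1b were not called. Cortical mural cells had 14.1 CPM of Arpp21, so both level and difference were near those of microglia. The call in mural cells is therefore not read as a result either. Rgs9 in astrocytes and Ppp1r1b in precursors and mural cells are among the 9 tests above and are not read as results.

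For D1 against D2 neurons, cells of the spiny-like clusters were gated by the 9 marker genes: at least 3 marker UMIs, of which at least 80% from 1 list. The D1 gate held 9271 cells, 588 of them eccentric-like, and the D2 gate 9667, while 1742 cells were under 80% and 1006 under 3 UMIs. Both gates came from each of 6 pools, and the pool was a block in the model. In all, 28.3% of 14206 genes were called, 15.6% higher and 12.8% lower in D2 neurons. Of the 9 members 6 were higher and none lower, with a median log2 difference of 0.095 against 0.0081 over all genes.

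Adora2a had a fitted difference of 58.0-fold, higher in D2 neurons (log2 5.86, SE 0.049, adjusted p = 2.6e-46, higher in 6 of 6 pools). Its level was 1049 ± 46.4 CPM in the D2 gate and 19.8 ± 4.92 in the D1 gate. Gpr6 was 27.1-fold higher (log2 4.76, SE 0.058, adjusted p = 1.2e-40, 6 of 6 pools), with 243 ± 39.3 against 9.80 ± 3.14 CPM. The gated D1 cells of a pool held 80 to 176 UMIs of Adora2a and 43 to 94 of Gpr6. These D1 levels were highest in the 2 class A pools, 24.5 and 26.4 CPM of Adora2a, and 13 to 19.3 in the other 4. The folds depend on how D1 neurons are chosen: between the D1-like and D2-like clusters, with no test, the log2 differences were 7.01 for Adora2a and 6.31 for Gpr6. Since the Adora2a share in D1-like cells was not clearly above background, its fold is not read as a ratio of expression in the 2 types.

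The other 7 members differed by far less between the 2 types. Pde10a was 12.5% higher in D2 neurons (log2 0.17, SE 0.014, adjusted p = 1.4e-12, 6 of 6 pools). Rgs9 was 7.05% higher (log2 0.098, SE 0.018, 5 of 6 pools), Arpp21 6.81% (0.095, SE 0.014, 6 of 6) and Gnal 6.36% (0.089, SE 0.018, 5 of 6). All 4 have overlapping ranges of CPM between the gates. The fitted values rest in part on TMM scaling: with total UMIs as the only scaling, an alternative added after seeing the data, they were 0.13 for Pde10a, 0.056 for Rgs9, 0.053 for Arpp21 and 0.047 for Gnal, all still called. The means of the CPM ratios within pools were 0.13, 0.052, 0.052 and 0.046. Without the cells named eccentric-like in the gates, Arpp21 differed by 0.051 (adjusted p = 0.0053). Unnamed subclusters with eccentric markers stayed in, among them that of 719 class A cells, where Arpp21 stood at 1406 CPM and Rgs9 at 314.5. By CPM, Arpp21 in the D2-like clusters exceeded D1-like in 2 of 6 pools. Rgs9 did so in 4 of 6 pools, and Pde10a and Gnal in 6 of 6. With the 2 class A pools alone, Rgs9 (0.081, adjusted p = 0.111) and Gnal (0.074, 0.118) lost their calls.

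Ppp1r1b, Adcy5 and Pde1b were not called. Ppp1r1b differed by 0.031 on the log2 scale, which is 1.02-fold with a 95% interval of 0.999 to 1.04, and was higher in D2 neurons in 3 of 6 pools. For Adcy5 the ratio was 1.03 (interval 1.00 to 1.05, 2 of 6 pools by CPM) and for Pde1b 1.02 (0.996 to 1.05, 3 of 6 pools). With total UMIs as the only scaling these 3 differences turned to -0.012, -0.0051 and -0.011, again not called. Between the clusters, by CPM with no test, D2-like exceeded D1-like in 0 of 6 pools for Adcy5. For Ppp1r1b and for Pde1b it did so in 1 of 6. Ppp1r1b passed the threshold without control 2 (0.042, adjusted p = 0.0432) and when Drd1 and Drd2 alone set the gate (0.065, adjusted p = 0.0023).

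**Figure D3:**
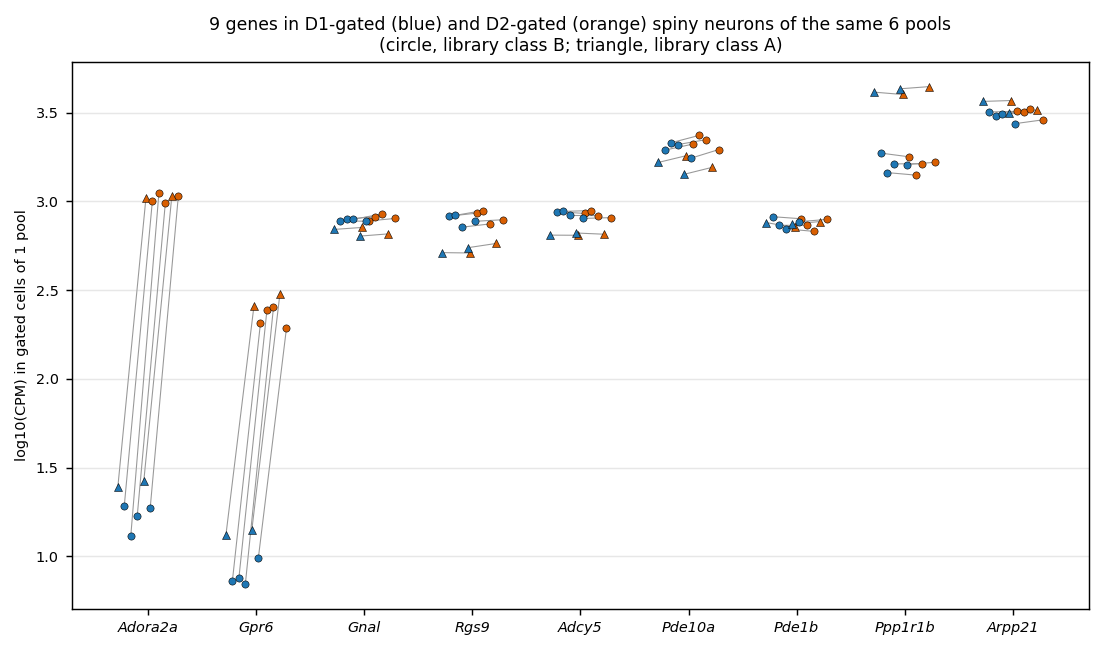
Level of each gene as log10(CPM) in the D1 gate (blue) and the D2 gate (orange), with a line joining the gates of each striatal pool; triangles are class A and circles class B pools. From D1 to D2, Adora2a rises by 5.35 to 6.42 and Gpr6 by 4.30 to 5.18 on the log2 scale, while the other 7 genes differ by -0.091 to 0.16.

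The other genes of the pathway were taken from a list of 77 genes by role, of which Drd1 and Drd2 set the gates. Of the remaining 75, 66 were tested in the gates, with 29 higher and 20 lower in D2 neurons and a median of 0.064. Over all genes, 15.6% were called higher and 12.8% lower, with a median of 0.0081. No comparison with genes of like level is given here, so these counts and those by role are not read as a result about the pathway. Among receptors coupled to the cyclase, 2 of 6 were higher and 3 lower. Htr4, a serotonin receptor gene, was called at 0.81 from 2.21 ± 1.59 against 1.45 ± 0.433 CPM, in 4 of 6 pools, and was not called by DESeq2 (0.62, adjusted p = 0.317). The gate genes themselves differed by -6.81 (Drd1) and 5.39 (Drd2).

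Of 18 G protein subunits and partners, 11 were higher and 5 lower. Gnas, which encodes the ubiquitous stimulatory alpha subunit that Gnal replaces in much of the striatum, was 5.04-fold higher in D2 neurons (log2 2.33, SE 0.040; 486 ± 182 against 100 ± 39.9 CPM). The Gnas locus also gives overlapping imprinted transcripts, which 3' counts by gene do not resolve. Gnai1 (-0.90) and Gnaz (-0.64), which encode inhibitory alpha subunits, were lower in D2 neurons in 6 of 6 pools. Rgs2, a regulator of G protein signalling, was higher (0.56; 836 ± 170 against 588 ± 132 CPM).

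Among 5 further cyclases, Adcy2 was lower in D2 neurons (-2.88, SE 0.20; 0.795 ± 0.229 against 6.11 ± 1.43 CPM) and Adcy1 higher (0.57; 43.0 ± 5.67 against 29.7 ± 4.41). Adcy3 was called at 0.12 (adjusted p = 0.019) but not by DESeq2 (0.14, adjusted p = 0.120). Of 10 phosphodiesterases 5 were higher and 3 lower. Pde9a, which acts on cGMP, was lower (-1.48; 4.96 ± 0.818 against 14.2 ± 1.74 CPM, 6 of 6 pools) and Pde4b, which acts on cAMP, higher (0.46; 232 ± 32.3 against 175 ± 26.4). Pde2a was called at 0.20. Pde1a was called at -0.32 but stood at 0.21 in the class A pools alone and was not called by DESeq2 (-0.22, adjusted p = 0.535).

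In the protein kinase A group 1 of 9 was higher and 4 lower. The anchor gene Akap9 was higher (0.33), while the regulatory subunit gene Prkar1b (-0.24), the inhibitor gene Pkia (-0.14) and the anchor gene Akap5 (-0.11) were lower, each in 6 of 6 pools. Of 18 phosphatases and effectors, 8 were higher and 4 lower. Arpp19, a relative of phosphatase inhibitors, was higher (0.47; 2247 ± 406 against 1670 ± 323 CPM), as were Rasgrp2 (0.37), a guanine nucleotide exchange factor, Ptpn5 (0.34), the striatum-enriched tyrosine phosphatase, and Ppp1ca (0.26), a catalytic subunit of protein phosphatase 1.

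Whether training changed the 9 genes was tested in D1-like and D2-like cells over 6 pools. The model held stage and library class, with 2 residual degrees of freedom. Both early pools are class B, so comparisons with early depend on the class difference fitted from the control and late pools. In neither cell type was a member called in any of the 3 comparisons by edgeR, nor by DESeq2 or limma-voom. The share of genes called was itself near 0: 0.00689% of 14518 between early and control pools in D1-like cells and 0% for the other 2 comparisons. In D2-like cells it was 0.0136% of 14653 between early and control, 0% between late and control, and 0.00682% between late and early. An unadjusted p under 0.05 was reached by 0 of 27 tests in D1-like and by 1 of 27 in D2-like cells, against 3.86% to 8.24% of all genes per comparison in D1-like and 4.31% to 10.0% in D2-like cells. Over the pathway list, 0 of 67 genes in D1-like and 0 of 64 in D2-like cells were called by edgeR in any comparison, with 3 to 5 at an unadjusted p under 0.05.

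Gpr6 in D2-like cells gave that 1 value. Its levels were 269.8 and 214 CPM in control 1 and 2, 252 and 258 in early 1 and 2, and 305 and 195.5 in late 1 and 2. The early pools lay between the controls, and the ranges overlapped. Early against control was 0.35 on the log2 scale with library class in the model (SE 0.13, adjusted p = 0.998).

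Pde10a in D1-like cells was at 1722 and 1988 CPM in the controls, 2141 and 2106 in the early pools and 1443 and 1777 in the late pools. The early pools lay above both controls, and the late pools overlapped the controls. How often the pools of all genes lie apart in this way is not given here. Such positions, for this member and those below, are therefore not read as results. The fitted differences were 0.078 (SE 0.13) for early and -0.18 (SE 0.12) for late against control. D2-like cells gave 1864 and 2161 in the controls, 2399 and 2269 early, and 1580 and 1983 late. Within the sequencing batches of the labels, early 1 was above control 2 by 0.11 (D1-like) and 0.15 (D2-like), and late 1 was below control 1 by 0.26 and 0.24 on the log2 scale of CPM.

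Adora2a in D2-like cells was at 1059 and 1021 CPM in the controls, 1106 and 977 in the early pools and 1075 and 1062 in the late pools. The early pools enclosed all the others. Late against control was 0.075 (SE 0.12, adjusted p = 0.928).

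Ppp1r1b in D1-like cells was at 4291 and 1958 CPM in the controls, 1508 and 1704 early, and 4404 and 1751 late, and in D2-like cells at 4159 and 1845, 1443 and 1655, and 4476 and 1681. Both high pools, control 1 and late 1, are class A, and within class A and within class B the stages lay closer. Early against control was -0.23 (SE 0.15) in D1-like and -0.17 (SE 0.15) in D2-like cells, neither called. Within batches, early 1 against control 2 gave -0.38 and -0.35, and late 1 against control 1 gave 0.038 and 0.11.

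Arpp21 in D1-like cells was at 3929 and 3365 CPM in the controls, 3186 and 3322 early, and 3312 and 2925 late. Both early and both late pools lay below the lower control, and the fitted differences were -0.054 (SE 0.14) early and -0.20 (SE 0.13, adjusted p = 0.848) late. D2-like cells gave 3838 and 3301, 3244 and 3389, and 3291 and 2912, where the late pools again lay below both controls and the early pools overlapped them (late against control -0.17, SE 0.13).

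Adcy5 was between 647 and 916 CPM over all pools of both cell types, Pde1b between 684 and 839, Rgs9 between 513 and 888, and Gnal between 645 and 860. Gnal was higher in both early pools than in both controls, at 783 and 781 against 708 and 770.5 CPM in D1-like cells and 827 and 860 against 740 and 780 in D2-like cells. The fitted differences, with library class in the model, were -0.0035 (SE 0.12) and 0.085 (SE 0.13), and were not called. Pde1b in D1-like cells was lower in both early pools, 747 and 710.5 CPM, than in the controls, 792 and 839, with a fitted difference of -0.19 (SE 0.13, adjusted p = 0.999). Between control and early or late pools, Adcy5 and Rgs9 overlapped in both cell types. Over 48 stage tests, which leave out Adora2a and Gpr6 in D1-like cells, the fitted differences lay between -0.29 and 0.35. Their 95% intervals lay within -0.59 and 0.64, so a change of 1.56-fold or more in either direction was outside them. For the 6 tests of Adora2a and Gpr6 in D1-like cells, with few UMIs, the intervals ran from -1.12 to 1.14.

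**Figure D4:**
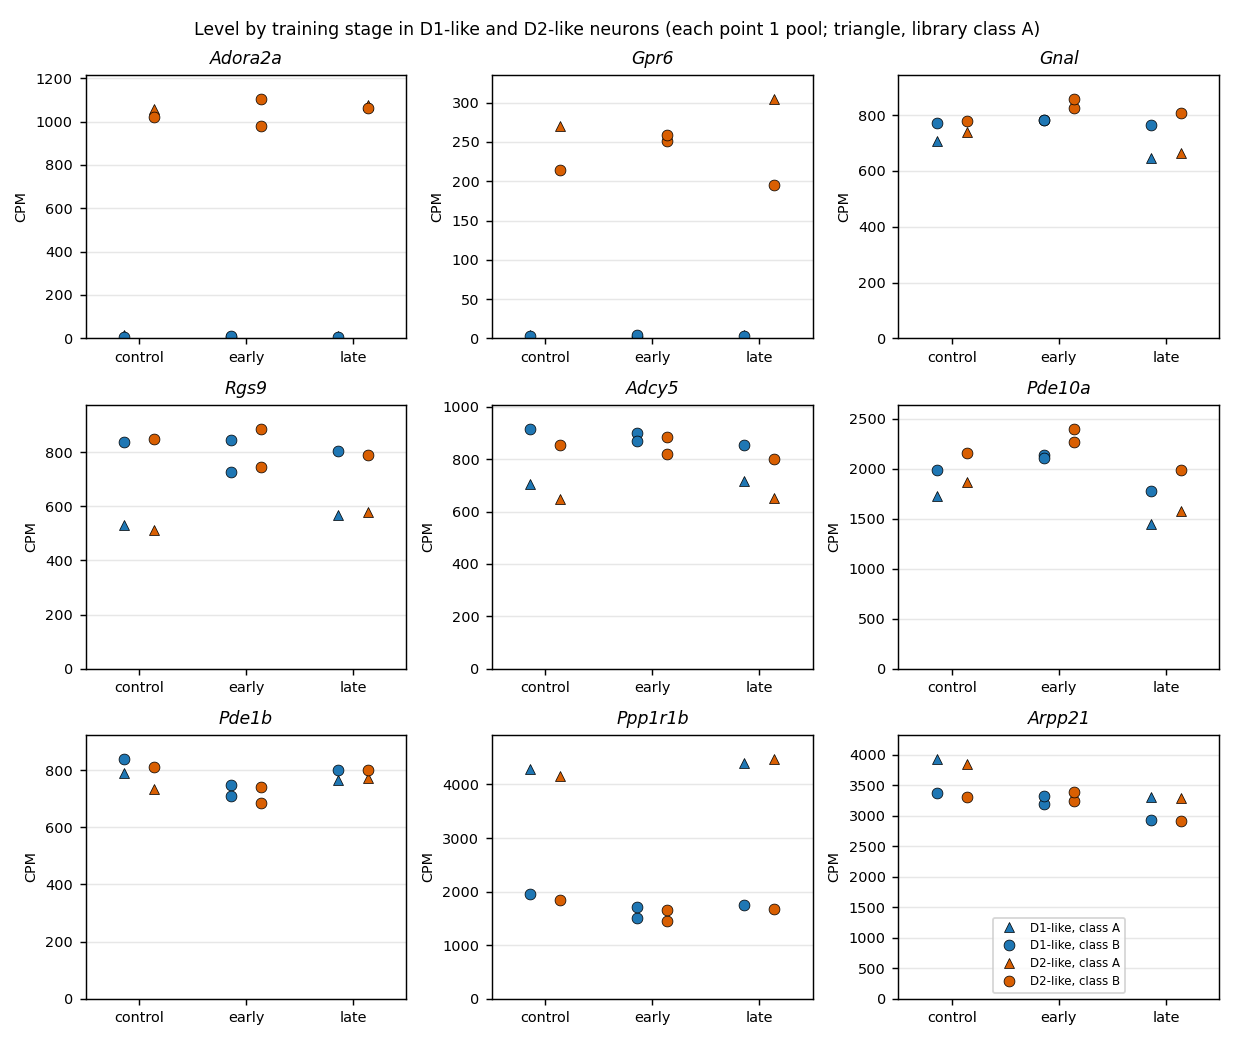
Level of each gene (CPM) in D1-like and D2-like cells by stage; each point is a pool, with triangles for class A and circles for class B. Ppp1r1b splits by class (4159 CPM or more in class A, 1958 or less in class B), and the trained pools of Gnal, Pde10a and others that lie outside the controls were not called.

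**Figure D5:**
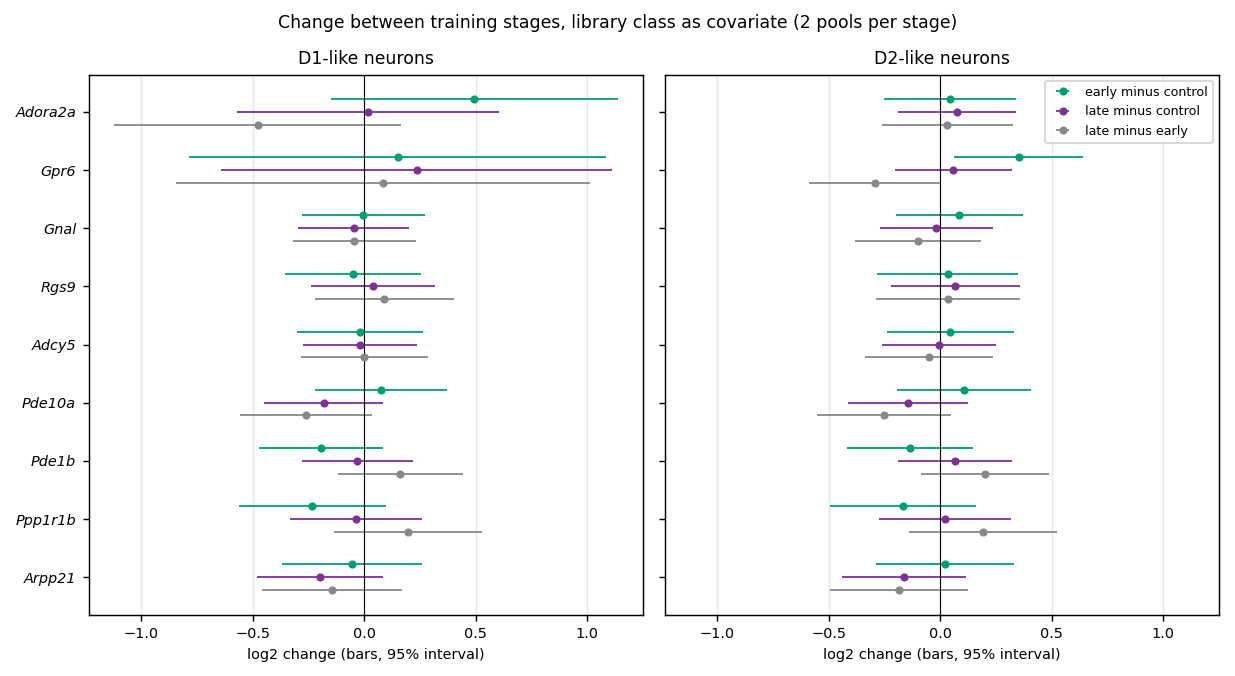
Fitted log2 difference between stages for each gene in D1-like and D2-like cells, with 95% intervals from edgeR. All 54 intervals but that of Gpr6 for early against control in D2-like cells include 0.

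Library class, which was compared after the values had been seen, moved some members more than any stage did. Ppp1r1b was 2.57-fold lower in class B D1-like cells (log2 -1.36, SE 0.14; 1731 ± 185 against 4348 ± 79.6 CPM, n = 4 and 2 pools) and 2.71-fold lower in D2-like cells (-1.44, SE 0.14). Rgs9 was higher in class B by 0.45 in D1-like and 0.44 in D2-like cells. Gpr6 was lower in class B D2-like cells by 0.64. Adora2a was also called in D1-like cells (6.95 ± 1.87 CPM in class B and 13.6 ± 1.30 in class A). It is not clearly above background there, so this is not read as a result. Of all genes, 33.9% in D1-like and 35.7% in D2-like cells were called between the classes. Adcy5, Pde10a, Pde1b, Gnal and Arpp21 were not called in either type, which does not show that they are alike in the classes. Adcy5 stood at 884 ± 29.0 CPM in class B and 711.5 ± 6.66 in class A in D1-like cells. In D2-like cells it stood at 841 ± 37.8 and 649 ± 3.21. By edgeR, Arpp21 was lower in class B by 0.33 in D1-like (adjusted p = 0.0656) and 0.34 in D2-like cells (adjusted p = 0.0546). In the cortex, where class A is again 1 batch, of its own, glutamatergic neurons had 201.5 to 236 CPM of Ppp1r1b in class A and 88.6 to 135 in class B.

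Stage was also tested in 22 other classes, 13 striatal and 9 cortical, 1 of which is all spiny-like cells together and so holds the D1-like and D2-like cells again. Of 384 member tests, 4 were called (1.04%, against 0.0354% of 605199 tests over all genes), and 64 (16.7%) had an unadjusted p under 0.05, against 4.99% of the tests over all genes. Striatal fibroblasts gave 9 of the 64, microglia 8 and astrocytes 7. Microglia are the class used as background above, and the 3 comparisons of a class share pools, so these tests are not independent. The share of 16.7% is therefore not read as an effect of stage. Without library class in the model 1 was called. Of the 4, 3 rest on few cells. Arpp21 in striatal fibroblasts was called for early against control (2.86) from 64 and 5 UMIs in the controls and 27 and 39 in the early pools, in 4 to 6 cells per pool. In CPM the controls were at 799 and 49.4 and the early pools at 232 and 274, between the controls, so the fitted change, with library class in the model, is opposite in sign to the difference of the group means. Pde10a in striatal macrophages was called between early and control and between late and early pools, from 0 and 1 UMIs in the controls, 23 and 44 early and 8 and 4 late.

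The fourth was Pde10a in cortical astrocytes, higher by 1.22 in late than in control pools. The controls had 199 and 209 CPM, the early pools 228 and 218, and the late pools 538 and 345. Late pools lay above all others, and the late 1 pool held 1706 astrocytes against 104 to 600 in the control pools.

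The difference between the D2 and D1 gates was not called by stage for any member. The share of genes called was 0.0282%, 0.0422% and 0.0211% of 14206 in the 3 comparisons, and 3, 3 and 2 of 9 members had an unadjusted p under 0.05, against 5.21%, 5.79% and 5.46% of all genes, none called by DESeq2. For Adora2a the log2 ratio per pool was 5.41 and 5.71 in the controls, 6.42 and 5.86 in the early pools and 5.35 and 5.83 in the late pools. Early against control gave 0.42 (SE 0.13, adjusted p = 0.527). Without early 2, which leaves early 1 alone in its group, it was 0.66, with late against early at -0.62. In the D2 gate Adora2a was at 1041 and 1010 CPM in the controls, 1111 and 984 early, and 1074 and 1073 late. In the D1 gate it was at 24.46 and 19.25, 13 and 16.93, and 26.4 and 18.81 CPM. The Adora2a share in D1-like cells was not clearly above background, so these differences by stage are not read as a result. For Gpr6 the ratios were 4.30 and 4.83, 5.03 and 5.18, and 4.42 and 4.30. Late against early gave -0.66 (SE 0.18, adjusted p = 0.422).

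Contralateral and ipsilateral hemispheres were compared within the 4 trained striatal pools in D1-like and D2-like cells. No member was called by edgeR or DESeq2 or had an unadjusted p under 0.05, and 0.0401% and 0.0239% of genes were called. Apart from Adora2a and Gpr6 in D1-like cells, the member differences lay between -0.070 (Pde1b, D2-like) and 0.00024 (Adora2a, D2-like).

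The reporter transcript, which marks cells in which Cre had acted, was found in 19.13% of D1-like and 19.15% of D2-like cells, against 5.511% of striatal microglia. Median depths were 4793, 4400 and 1823 UMIs. No member was called by edgeR or DESeq2 between cells with and without a reporter UMI in either type, where 0.15% and 0.273% of genes were called; Gpr6 was not tested in D1-like cells. In D1-like cells 2 of 8 tested members had an unadjusted p under 0.05, against 6.11% of all genes. They were Arpp21 (0.057) and Adora2a (0.47), which is not clearly above background there. Of the pathway list, Rgs2 (0.14) and Rgs4 (0.12) were higher and Ppp1r2 (-0.12) lower in reporter-positive D1-like cells, and Rgs2 was higher (0.18) in D2-like cells. Those in D1-like cells were lost under DESeq2 and all were lost when cells were thinned to 1000 UMIs.

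Genes whose levels followed those of a member most closely over the 27 named classes of both regions were found by Pearson's r of log2(CPM + 1) among 13809 genes. These values describe classes that share libraries and spiny neuron RNA, and carry no p. Penk, Syndig1l and Rasd2, listed below, are among the markers that named the spiny-like clusters, so their r is not independent of the naming. For Ppp1r1b, r was 0.88 with Rgs9 and 0.87 with Strip2. Adora2a was most like Nexn (0.72), 4930532G15Rik (0.69) and Upb1 (0.69). Gpr6 was most like Penk (0.85), which is a D2 marker, then Upb1 (0.82) and Syndig1l (0.81). For Rgs9, r was 0.93 with Rxrg and 0.92 with Ryr3. Gnal was followed by Gprin3, Plppr4 and Scamp1 (0.92 each). Adcy5 was followed by Galnt17 (0.83), Mbnl2 (0.80) and C1qtnf12 (0.80). Pde10a was followed by Ntrk3 (0.88), Kptn (0.87) and Fam110b (0.87), and Pde1b by Rasd2 (0.97), Gprin3 (0.93) and Kcna4 (0.89). Arpp21 was followed by Grm4 (0.94), Ppp3ca (0.93) and Cyld (0.92).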

How the data were processed

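The authors deposited raw UMI counts per gene and cell barcode for each library, made with Cell Ranger 3.1.0 on GRCm38/mm10 per the submitters' processing notes, while the file headers give software version 3.0.2. Of 54235 features, 54165 matched GENCODE M21 by ID. The aligner and annotation settings are not given in the sources used here.

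Cells with at least 500 genes and 1000 UMIs and at most 20% mitochondrial UMIs were kept (103715 of 127901 barcodes). Doublets, 5103 cells at 0.8% per 1000 barcodes, were removed. Cells were clustered with scanpy 1.11.5 (2000 variable genes without the members, 40 components, 20 neighbours, Leiden resolution 1.5, and 1.0 within spiny neurons). Counts were summed per pool and class, for classes with at least 20 cells in each pool, and tested with edgeR 4.0.16 (TMM, filterByExpr, quasi-likelihood, Benjamini-Hochberg over all genes, called at an adjusted p under 0.05). DESeq2 1.42.0 and limma 3.58.1 were alternatives, with other scalings, gates, filters and each pool left out in turn. Intervals are at 95%.

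Tested on simulated data, the stage fit of D1-like cells (late against control, 14518 genes) recovered 90.5% of 200 genes changed 2-fold, all above 8 CPM, with 5.73% of calls false, and the gate fit (14206 genes) 100% with 4.76% false; smaller changes were not simulated. The members and lists were chosen with earlier results of these data known. Named are the members, at most 4 called pathway genes per role and comparison with the largest changes, and for each member the 3 genes of highest correlation over classes. Class-only pools, gates without eccentric-like cells, scaling by total UMIs and the regions without striatal pool late 1 were alternatives added after seeing the data. A gene that this rule names is not reported here.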

Additional observations from a re-analysis of the deposited data

Results flagged for a closer look

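Within D1-like cells of the 4 early libraries, Adora2a was highest at 12.5 CPM in the contralateral library of early 2, against 6.66 to 6.78 in the other 3. Within D2-like cells of the 4 late libraries, Pde1b was highest at 831.7 CPM in the ipsilateral library of late 2, against 766 to 775.5 in the others. In each case 1 library lay far from the rest of its group, and the cause was not tested. In all, 36 such groups were examined, and for independent values chance flags about 1 in 20 groups. The 4 libraries of a group are 2 hemispheres of 2 pools, and the late pools differ in library class, so that rate may not hold. Adora2a in D1-like cells was also not clearly above background.

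The difference of Gnas between D2 and D1 gates was itself different between stages, by -0.48 on the log2 scale for late against early (edgeR's quasi-likelihood test, adjusted p = 0.0047). The log2 ratios were 2.28 and 2.34 in the controls, 2.40 and 2.59 in the early pools and 2.24 and 1.93 in the late pools. DESeq2 did not call it (-0.47, adjusted p = 1), and without late 2 it was -0.19 (adjusted p = 0.967).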

How the results depend on the processing

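Of 1686 values of members under alternatives, 1671 were counted as unchanged, 8 passed the threshold only under an alternative and 7 only under the main settings. A reversal was a change of sign where at least 1 of the 2 fits called the member, and 0 were found. Changes of sign where neither fit called the member count as unchanged, as for Ppp1r1b, Adcy5 and Pde1b with total UMIs as the only scaling. Values by cluster, which had no test, were judged by sign alone. Among pathway genes Pde1a reversed, to 0.21 in the class A pools. The count of members called by stage in the other classes was 1 without library class, against 4, and the regional count was 56 without a filter on low counts, against 24. Leaving out 1 pool gave 0 to 2 members for D2 against D1 by stage, and 6 to 7 for D2 against D1. With the replicate number as a block in place of library class, 0 members were called by stage in D1-like and in D2-like cells; the numbers follow accession order and pair nothing. Counts over all genes moved more: for D2 against D1, 4026 against 2403 with DESeq2, 1447 with cells thinned and 1600 in class A pools; between regions, 7698 against 4715 without library class; by stage in other classes, 214 against 16 without library class; by stage over the alternatives, 0 to 433 in D1-like cells (1 in the main fit) and 0 to 497 in D2-like cells (3), and, without 1 pool, 2 to 411 and 188 to 1107. For D2 against D1 by stage the count was 13, with 0 to 39 under other settings and 28 to 90 without 1 pool; between hemispheres it was 8, 0 with DESeq2 and 2 to 13 without 1 pool; by reporter it was 47, with 3 to 105 over the alternatives. The causes of these shifts were not tested. The stage intervals of Adora2a and Gpr6 in D1-like cells, where both had few UMIs, ran from -1.12 to 1.14 on the log2 scale, against -0.59 to 0.64 in the other 48 tests.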
